A study of Mus musculus with 7 samples.

Results

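The Serpina cluster of mouse chromosome 12 was examined at 10 genes, Serpina1a, Serpina1b, Serpina1c, Serpina1d, Serpina1e, Serpina3k, Serpina3m, Serpina3n, Serpina6 and Serpina10, in ATAC-seq of liver. ATAC-seq uses the transposase Tn5 to cut open chromatin, so that the number of fragments counted in a region measures its accessibility. Of the 55680 accessible regions of the series, 45 overlapped one of these genes or the 10 kb on either side of it (GRCm38 coordinates, GENCODE M21 gene models), and a region near several genes was given to the gene with the nearest transcription start site (TSS). The samples were whole liver of C57BL/6N mice, which the study's methods describe as healthy males: 3 young samples at 3 months and 4 aged samples at 18 months, with no treatment or genetic change named for either age. The aged samples came from 3 animals, since 2 of them are separate lobules of 1 mouse, and the labels do not say which. The p-values therefore treat as independent a pair of aged samples that share an animal.

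Serpins are protease inhibitors that present a reactive loop as bait and trap the attacking protease in an inactive complex, and most of those studied here are made by hepatocytes and secreted into plasma. Serpina1a to Serpina1e are tandem mouse copies of the gene for alpha-1-antitrypsin, the plasma inhibitor of neutrophil elastase. Serpina3k, Serpina3m and Serpina3n belong to the expanded mouse family related to alpha-1-antichymotrypsin, of which Serpina3k is known as a kallikrein-binding inhibitor and Serpina3n as an acute phase protein that inhibits granzyme B. Serpina6 encodes corticosteroid-binding globulin, the plasma carrier of glucocorticoids, and Serpina10 encodes the protein Z-dependent inhibitor of coagulation factor Xa.

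The copies of alpha-1-antitrypsin are so alike that their sequence bears on the counts of most of their own regions, and their promoters are shown first. The RefSeq promoter sequences (GRCm38.p6) held 6 of the 10 genes; Serpina3k, Serpina3m, Serpina6 and Serpina10 were not among them. From the 5 alpha-1-antitrypsin promoters the same stretch of 156 bases was taken, aligned on a short run of bases that all copies share, all on the minus strand (Serpina1a at chr12:103863585-103863740, Serpina1b at chr12:103738160-103738315, Serpina1c at chr12:103904922-103905077, Serpina1d at chr12:103773594-103773749, Serpina1e at chr12:103956920-103957075). Capitals mark the bases in which a copy differs from the majority of the 5.
Serpina1a: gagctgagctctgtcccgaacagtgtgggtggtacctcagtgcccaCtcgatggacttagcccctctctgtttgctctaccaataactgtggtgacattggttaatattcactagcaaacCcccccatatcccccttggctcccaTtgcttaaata
Serpina1b: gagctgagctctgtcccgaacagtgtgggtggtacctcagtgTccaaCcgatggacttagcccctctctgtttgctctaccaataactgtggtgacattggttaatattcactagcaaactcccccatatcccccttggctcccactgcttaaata
Serpina1c: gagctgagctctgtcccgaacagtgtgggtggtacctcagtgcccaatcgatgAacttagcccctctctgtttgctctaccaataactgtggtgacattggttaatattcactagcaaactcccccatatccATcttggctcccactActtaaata
Serpina1d: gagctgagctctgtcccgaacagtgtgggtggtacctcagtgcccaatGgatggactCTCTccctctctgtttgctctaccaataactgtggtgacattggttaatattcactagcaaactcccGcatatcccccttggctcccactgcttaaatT
Serpina1e: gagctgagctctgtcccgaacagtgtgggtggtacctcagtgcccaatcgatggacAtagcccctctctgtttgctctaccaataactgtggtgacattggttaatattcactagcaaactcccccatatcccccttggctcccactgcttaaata

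Between any pair of copies 92.9% to 98.1% of the 156 bases were identical. Serpina1e differed from the majority at 1 base, Serpina1b at 2, Serpina1a at 3, Serpina1c at 4 and Serpina1d at 7.

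The counts of a sample over all regions summed to between 4474652 and 25461110, and 0.15% to 0.20% of each total lay in the 45 Serpina regions. Counts per Serpina region and sample ran from 2 to 4555, and 5 of the 45 regions had fewer than 10 counts in some sample. Levels are given as CPM, counts scaled by library size with TMM factors. As a check of the tissue, promoters of 8 of 8 hepatocyte markers held a region, with a summed level of 583 to 670.2 CPM in young and 726 to 854 CPM in aged samples. Promoters of T and B cell markers held a region for 0 of 5 genes and those of Kupffer cells for 1 of 5 (Clec4f, 2.22 to 2.65 CPM in young and 0.588 to 2.80 in aged), against 3 of 5 for endothelial (59.4 to 65.4 and 48.4 to 80.7 CPM), 2 of 5 for stellate (20.9 to 24.0 and 11.9 to 19.0 CPM) and 2 of 4 for cholangiocyte markers (41.7 to 49.5 and 36.7 to 54.3 CPM). By edgeR, 0 of the 8 promoters of these other cell types were called in either direction, beside 4.48% more and 2.06% less accessible over all promoter regions. In whole tissue, fewer cells of a type and less open chromatin per cell cannot be told apart.

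The first question was whether accessibility of the cluster differed between young and aged liver. With edgeR's quasi-likelihood test and Benjamini-Hochberg adjustment over all 55680 regions, 3 of the 45 Serpina regions were more accessible in aged liver and 2 were less accessible at an adjusted p under 0.05. Over the whole series 2.44% of regions were called more accessible and 3.3% less accessible, against 6.67% and 4.44% of the 45, and shares that rest on 3 and 2 regions are not a result about the cluster as a whole. All 3 gains lay at Serpina3k, and both losses lay in the stretch that holds the copies of alpha-1-antitrypsin. Every aged sample was above every young sample in 5 of the 45 regions and below in 3, and over all regions these shares were 10.2% and 11.6%. The median log2 fold change (aged over young) was 0.01 over the Serpina regions and -0.04 over all regions, with 24 of the 45 above 0. By place, the 10 promoters ran from -0.63 to 0.86, the 8 gene ends from -0.84 to 2.05, the 13 other regions inside genes from -1.07 to 1.27 and the 14 flanking regions from -0.75 to 0.54, and of the flanking regions 0 were called. For 15 of the 45 regions the nearest TSS belonged to a gene outside the 10, such as a pseudogene.

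**Figure D1:**
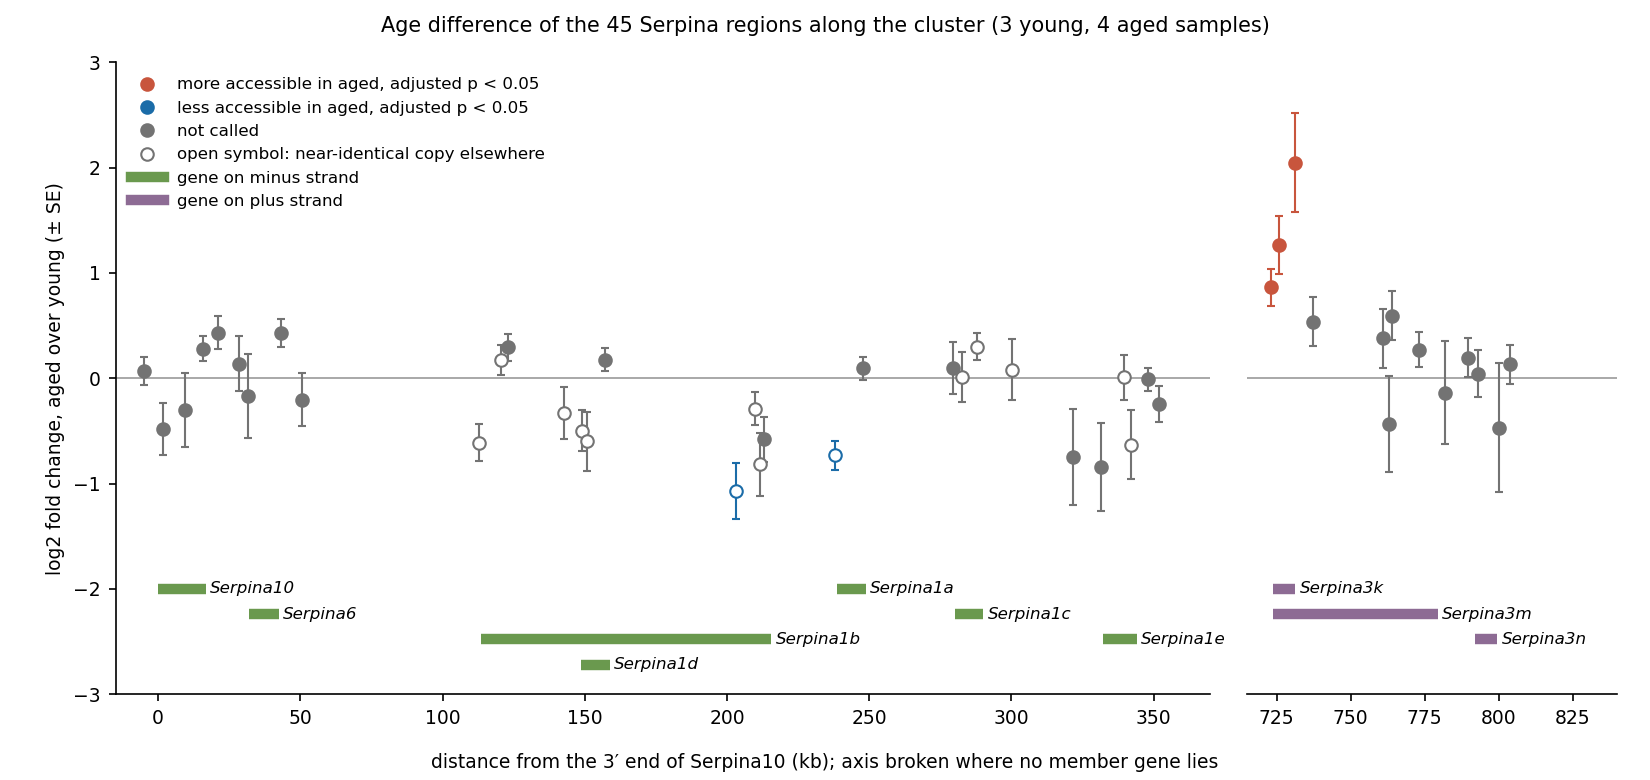
Log2 fold change of accessibility (aged over young, bars ± SE of the edgeR fit) for the 45 Serpina regions, plotted by distance from the 3′ end of Serpina10 in kb, with the gene spans below; the axis is broken between the groups of genes. The 3 called gains sit together over Serpina3k at 0.86, 1.27 and 2.05, and the 2 called losses, both open symbols for regions with a near-identical copy elsewhere, sit at -0.73 and -1.07.

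Serpina3k gained accessibility at its start, inside the gene and at its end. Its promoter region (chr12:104336432-104339421, plus strand, exon 1 of 5) measured 45.8, 68.0 and 58.0 CPM in the young samples and 118, 71.4, 109 and 119 CPM in the aged samples. All 4 aged samples were above all 3 young ones, with aged replicate 2 close to the highest young sample. The mean rose 1.82-fold, from 57.3 ± 11.1 to 104 ± 22.3 CPM (SD, n = 3 and 4), a log2 fold change of 0.86 ± 0.18 (SE; edgeR adjusted p = 0.0174). The transcript Serpina3m-201 is annotated from the same start site, so the gain belongs to the shared start and cannot be divided between these genes. The exon 2 and gene-end regions described next also lie within that longer transcript, and all of these were counted under Serpina3k because a tie in distance to the start went to the shorter gene.

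Inside the gene, a region over exon 2 (chr12:104340028-104340993), the exon with the start codon, had 10.4, 15.8 and 20.7 CPM in young liver and 41.3, 18.4, 39.2 and 47.9 CPM in aged liver. Aged replicates 1, 3 and 4 were well above the young range, while aged replicate 2 fell within it. The log2 fold change was 1.27 ± 0.27 (edgeR adjusted p = 0.0212). The widest difference lay at the end of the gene, in a region over exons 4 and 5 and the sequence beyond them (chr12:104343540-104348529). There the young samples had 25.3, 80.5 and 105 CPM and the aged samples 400.2, 87.3, 274 and 388 CPM, a mean of 70.1 ± 40.7 against 287 ± 145 CPM. Again aged replicate 2 lay within the young range, and the young samples themselves differed by 4.14 times from lowest to highest. At 2.05 ± 0.47 (edgeR adjusted p = 0.0254), or 4.10-fold in the means, it had the largest gain of the 1353 gene-end regions outside promoters, and 6 of all 55680 regions had a larger log2 fold change.

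A small region beyond the end of the gene (chr12:104351784-104352093) had 4.07, 5.67 and 6.08 CPM in young and 7.82, 6.67, 7.0 and 8.78 CPM in aged samples. Every aged sample was above every young one there, but the adjusted p was 0.169. Per kb of region the promoter had 19.2 ± 3.71 CPM at 3 months and 34.9 ± 7.47 at 18 months, and the gene end had 14.1 ± 8.15 and 57.6 ± 29.1 (SD, n = 3 and 4). The order of these parts of the gene followed the samples: the gene end was above the promoter in young replicate 3 and in aged replicates 1, 3 and 4, and below it in the others. The promoter's call was lost without young replicate 1 (log2 fold change 0.73, adjusted p = 0.0755), aged replicate 1 (0.80, 0.0623) or aged replicate 3 (0.84, 0.0592), and with offsets fitted on mean abundance (0.56, 0.0950). The exon 2 and gene-end calls were lost without young replicates 1 or 2 or aged replicates 1 or 3, at adjusted p of 0.0671 to 0.0853 and 0.0687 to 0.0762, and with the same offsets (0.0535 and 0.109). If aged replicates 1 and 3 are taken as the pair from 1 animal and summed, the promoter, exon 2 and gene-end calls were all lost (adjusted p = 0.0541, 0.0619 and 0.0663), and with any other pair summed all 3 were made.

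At the alpha-1-antitrypsin promoters, 4 of the 5 copies had log2 fold changes above 0 and none passed the test. Over the series 9421 of the 15422 promoter regions were above 0, with 4.48% called more and 2.06% less accessible, so these counts are near the background. In Serpina1a (chr12:103859244-103865917), the young samples had 147, 133 and 149 CPM and the aged samples 134, 156, 166 and 154 CPM, and the ages overlapped. For Serpina1b (chr12:103737179-103738739) the values were 51.8, 47.8 and 36.0 CPM at 3 months and 53.2, 58.6, 54.4 and 57.4 CPM at 18 months. It was the copy in which all aged samples exceeded all young ones, at a log2 fold change of 0.30 ± 0.13 (edgeR adjusted p = 0.173), which was 0.18 without young replicate 3 and 0.078 with abundance offsets. Serpina1c (chr12:103900070-103905553) had 120.3, 109 and 116 CPM in young and 166, 135, 147 and 118 CPM in aged liver, and Serpina1d (chr12:103769371-103774184) had 97.9, 88.3 and 95.2 and 91.8, 115, 109 and 109 CPM. In both, 3 of 4 aged samples lay above the young range, at log2 fold changes of 0.30 ± 0.12 (adjusted p = 0.151) and 0.18 ± 0.11 (adjusted p = 0.349). Serpina1c was past the threshold with offsets on GC content (0.40, adjusted p = 0.0441).

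Serpina1e was the copy whose promoter had a log2 fold change below 0. This region (chr12:103956213-103957337) had 29.0, 21.2 and 28.4 CPM in the young samples, while the aged samples had 24.7, 9.02, 6.77 and 23.7 CPM. Aged replicates 1 and 4 were inside the young range, and replicates 2 and 3 were well below it, so that the aged samples differed by 3.65 times among themselves. The log2 fold change of -0.63 ± 0.32 did not pass the test (edgeR adjusted p = 0.249). It was -0.41 without aged replicate 3 and -0.92 without aged replicate 1, and a promoter of TSS ± 1000 bp takes another region, at 0.0095. A near copy of this region lies at the Serpina1c promoter, and 46.8% of its 50-base stretches also occur elsewhere in the genome.

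Of all 10 genes, 9 had a promoter with a value above 0 (median log2 fold change 0.28), as had 9421 of the 15422 promoter regions of the series (median 0.09), and 1 promoter was called more accessible and 0 less accessible. Over the 15422 promoter regions of the series 4.48% were called more accessible and 2.06% less accessible. Every aged sample was above every young one at 2 of the 10 promoters and below at 0, beside 20.4% and 8.88% of all promoter regions. Serpina promoters are strong, lying in the 8th to 10th decile of mean signal, and 5 of the 10 exceeded the median of their decile, which was 0.28 in the 10th. The direction depended on the scaling: 7 of the 10 were above 0 with total counts in place of TMM factors, as Serpina1a and Serpina3n changed sign, and 4 of 10 with offsets fitted on mean abundance, as Serpina1a, Serpina1c, Serpina1d, Serpina3m and Serpina3n did.

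**Figure D2:**
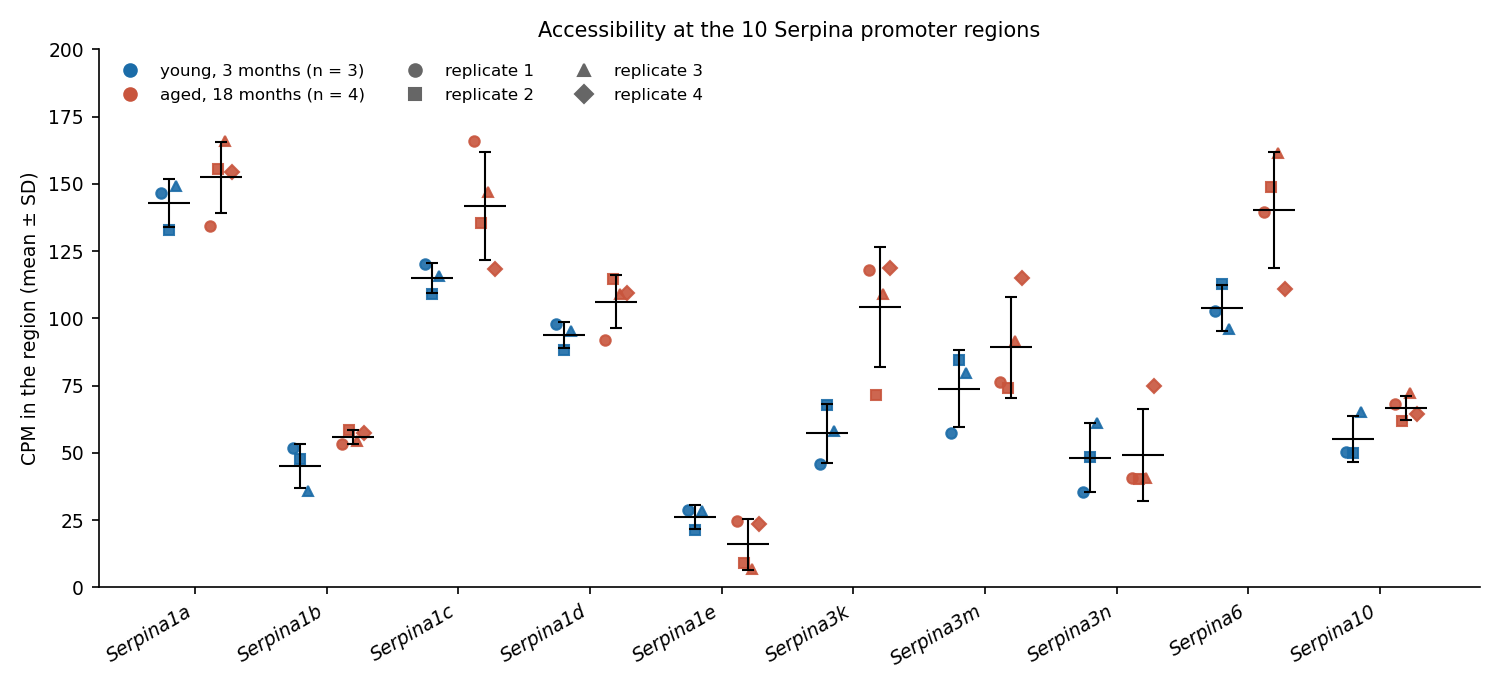
CPM in the promoter region of each of the 10 Serpina genes, with 1 symbol per sample (3 young, 4 aged) and black bars for the mean ± SD. The ages are separate at Serpina3k and Serpina1b and overlap elsewhere, and at Serpina1e aged replicates 2 and 3 (9.02 and 6.77 CPM) lie below all other samples.

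At the far ends of the alpha-1-antitrypsin copies, 4 of the 5 gene-end regions had log2 fold changes below 0 and 1 was called less accessible. Values below 0 were common at gene ends: of the 1353 gene-end regions of the series outside promoters 835 were below 0 (median -0.13), with 6.21% called less accessible and 2.59% more accessible. The Serpina1a gene-end region (chr12:103851572-103854305, last exon and downstream sequence) had 59.1, 44.1 and 62.8 CPM in the young samples and 35.0, 29.0, 36.0 and 32.5 CPM in the aged samples. All aged values were below all young ones, and the mean fell from 55.3 ± 9.93 to 33.1 ± 3.09 CPM, a log2 fold change of -0.73 ± 0.14 (edgeR adjusted p = 0.0137). The call was lost without young replicate 1 (-0.67, adjusted p = 0.0674). The gene ends of Serpina1b (39.5, 25.6 and 36.5 CPM in young, 18.3, 27.5, 22.6 and 20.6 CPM in aged) and Serpina1d (24.6, 17.0 and 19.1 and 12.5, 19.0, 14.0 and 12.3 CPM) were low in aged samples as well, with 3 of 4 aged samples under the young range in each. They did not pass the test, at log2 fold changes of -0.61 ± 0.18 (adjusted p = 0.0557) and -0.50 ± 0.19 (adjusted p = 0.129).

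The second loss lay over exons 3 and 4 of the unprocessed pseudogene Gm8893, inside the long transcript Serpina1b-202 (chr12:103817227-103818990). It had 22.0, 12.1 and 9.87 CPM in young and 5.71, 7.26, 7.0 and 8.27 CPM in aged liver, with young replicate 1 far above the other samples. All aged samples were below all young ones, at a log2 fold change of -1.07 ± 0.26 (edgeR adjusted p = 0.0330). Without young replicate 1 it was -0.65 (adjusted p = 0.175), and the call was also lost without young replicate 2 or aged replicates 1, 2 or 3 (adjusted p of 0.0506 to 0.103). Abundance offsets ended it as well (adjusted p = 0.0868), as did summing aged replicates 1 and 2, 1 and 3 or 2 and 3 as the possible pair from 1 animal (adjusted p = 0.0552, 0.0806 and 0.0616). The 3 further regions upstream within this transcript had log2 fold changes of -0.29, -0.82 and -0.58, and in the middle one every aged sample was below every young one (adjusted p = 0.112).

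These called losses are near copies of each other's surroundings, which the sequence shows. From the centre of each region 150 bases are given as read on the plus strand, beside their best ungapped match elsewhere in the cluster, with capitals at the bases that differ. The Gm8893 stretch (chr12:103818033-103818182) differs at 2 bases from a place within the Serpina1a gene-end region (chr12:103853852-103854001), and the Serpina1a stretch (chr12:103852863-103853012) differs at 1 base from a place just beside the Gm8893 region (chr12:103817043-103817192).
Gm8893 region: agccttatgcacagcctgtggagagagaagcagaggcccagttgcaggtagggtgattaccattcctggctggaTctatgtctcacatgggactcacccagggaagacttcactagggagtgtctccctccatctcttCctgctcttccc
match in the Serpina1a gene end: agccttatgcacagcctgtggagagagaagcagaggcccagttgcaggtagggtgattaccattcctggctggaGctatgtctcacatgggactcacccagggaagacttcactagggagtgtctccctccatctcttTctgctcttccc
Serpina1a gene end: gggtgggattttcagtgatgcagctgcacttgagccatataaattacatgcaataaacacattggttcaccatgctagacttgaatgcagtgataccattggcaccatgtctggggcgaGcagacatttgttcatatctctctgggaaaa
match beside the Gm8893 region: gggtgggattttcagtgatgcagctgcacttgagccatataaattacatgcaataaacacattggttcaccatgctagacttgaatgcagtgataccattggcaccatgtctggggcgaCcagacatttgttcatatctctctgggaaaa

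A fragment that fits several copies equally well is given a low mapping quality by the aligner, and the study removed fragments of mapping quality 10 or less, so counts in these regions come mainly from fragments that hold a base telling the copies apart. Of the 50-base stretches of the Serpina1a gene end and the Gm8893 region, 35.8% and 40.5% occur elsewhere in the genome. A near-identical copy (at least 80% of the region at 95% identity or more) existed for 14 of the 45 Serpina regions, all of them assigned to alpha-1-antitrypsin genes, and both losses and 0 of the 3 gains were among these. In the 14 regions the median log2 fold change was -0.42, and in the 31 others it was 0.10. The groups also differ in gene and in place, which cannot be told apart here from repeated sequence. By place, the median was 0.28 over the 10 Serpina promoters and -0.49 over the 8 gene ends. Which copy a given fragment came from beyond the filter on mapping quality was not tested.

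At Serpina1e the gene end (chr12:103944625-103947663) varied as its promoter did. The young samples had 71.6, 54.2 and 64.5 CPM, and the aged samples had 60.7, 8.43, 14.9 and 50.4 CPM. Aged replicates 2 and 3 were again the low ones, and the aged samples differed by 7.20 times, so the log2 fold change of -0.84 ± 0.42 did not pass the test (edgeR adjusted p = 0.229). These 2 samples also had the fewest counts over all regions, 5108283 and 4474652, and whether depth bears on their values was not tested. The inside-gene region nearer the start (chr12:103952543-103955947) had 52.8, 31.6, 32.2 and 63.3 CPM in aged samples, with the same 2 replicates lowest, against 55.2, 38.0 and 43.2 in young. Upstream of the gene, a region at chr12:103961553-103963981 hardly varied, with 41.5, 38.8 and 41.3 CPM in young and 39.7, 39.2, 38.8 and 42.8 CPM in aged liver, and its spread within ages was at percentile 1.81 of regions of like strength. 0% of its 50-base stretches occur elsewhere.

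Serpina1c showed another split. Its gene end (chr12:103892204-103896362), which also holds the promoter of the antisense transcript B430119L08Rik, had 76.5, 73.7 and 78.3 CPM in the young samples, within 1.06 times of each other. The aged samples had 119, 55.9, 102 and 47.0 CPM, so that replicates 1 and 3 were above the young range and replicates 2 and 4 below it. Its inside-gene region (chr12:103896555-103898162) had 38.7, 18.4, 25.4 and 16.4 CPM in the aged samples against 28.3, 21.7 and 24.8 in young. Neither mean differed between the ages beyond the spread (log2 fold changes 0.10 ± 0.25 and 0.01 ± 0.24, edgeR adjusted p = 0.847 and 0.979).

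**Figure D3:**
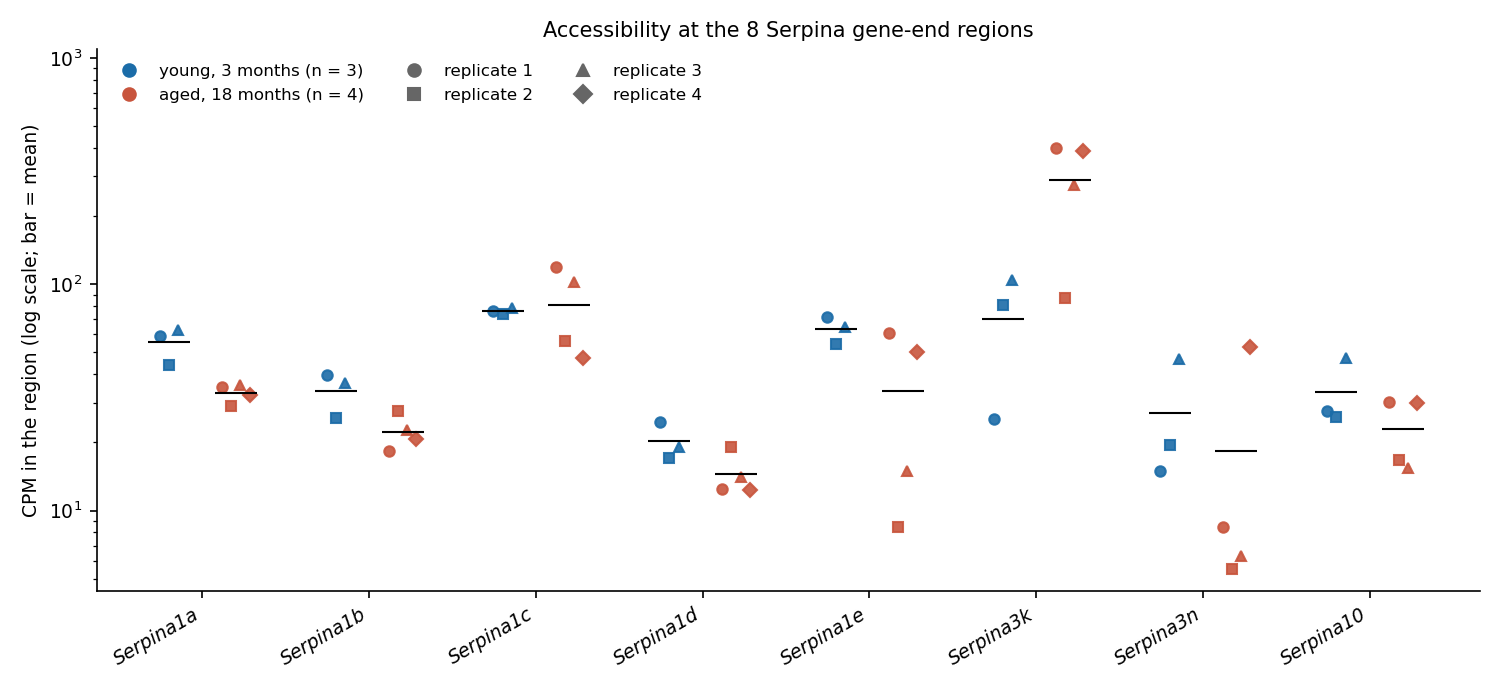
CPM in the gene-end region of the 8 Serpina genes that have one, on a log axis, with 1 symbol per sample and black bars for the mean of each age. At Serpina1a the aged samples all lie below the young ones, at Serpina3k aged replicates 1, 3 and 4 lie far above them, and at Serpina1e and Serpina3n the aged samples are spread 7.20 and 9.62 times.

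The Serpina3 genes were compared over their first 90 coding bases, which in each gene lie within an accessible region (plus strand of GRCm38, Serpina3k at chr12:104340511-104340600, Serpina3m at chr12:104389076-104389165, Serpina3n at chr12:104408671-104408760). The alpha-1-antitrypsin copies were compared over promoter bases, so the identities of these families cannot be ranked. Capitals mark bases that neither of the other genes shares in the alignment. Serpina3k matched Serpina3m in 78.5% and Serpina3n in 79.6% of aligned positions, and Serpina3m matched Serpina3n in 86.7%.
Serpina3k: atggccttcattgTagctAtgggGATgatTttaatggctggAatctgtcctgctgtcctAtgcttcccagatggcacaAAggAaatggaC
Serpina3m: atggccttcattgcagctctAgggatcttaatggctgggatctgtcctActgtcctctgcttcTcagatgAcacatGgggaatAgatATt
Serpina3n: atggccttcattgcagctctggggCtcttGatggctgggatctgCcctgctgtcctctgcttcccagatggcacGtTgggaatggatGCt

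Of the 9 regions counted under Serpina3m and Serpina3n, which leave out those that Serpina3m shares with Serpina3k, 0 were called. Over all regions 2.44% were called more and 3.3% less accessible, so 0 of 9 is near the background. Serpina3m had 57.6, 84.4 and 79.6 CPM at its own promoter (chr12:104385758-104390095, exons 1 and 2 of Serpina3m-202) in young liver and 76.3, 74.1, 91.5 and 115 CPM in aged liver, and the ages overlapped (log2 fold change 0.27 ± 0.17, edgeR adjusted p = 0.332). The difference was 0.13 without young replicate 1 and 0.13 without aged replicate 4. Serpina3n had 35.4, 48.3 and 61.2 CPM at its promoter (chr12:104406293-104409147) in the young and 40.6, 40.4, 40.9 and 75.0 CPM in the aged samples. There aged replicates 1 to 3 were alike and replicate 4 was far higher, with 1.86 times between the highest and the lowest, and the age means did not differ beyond the spread (0.05 ± 0.22, adjusted p = 0.926).

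Beyond both genes the same samples were high. The Serpina3n gene end (chr12:104413695-104415815) measured 14.9, 19.5 and 46.5 CPM in young and 8.43, 5.49, 6.30 and 52.8 CPM in aged samples, and the region downstream of Serpina3m (chr12:104394937-104398220) measured 16.6, 35.3 and 87.5 and 27.2, 23.3, 24.3 and 86.5 CPM. Young replicate 3 and aged replicate 4 were the highest of their age in each of these and at the Serpina3n promoter. Among the aged samples the highest value was 9.62 and 3.71 times the lowest, and the log2 fold changes of -0.47 ± 0.61 and -0.14 ± 0.49 did not pass the test (edgeR adjusted p = 0.679 and 0.893). At the Serpina3k gene end young replicate 3 was again the highest of its age, while aged replicate 1 was as high as replicate 4. Inside the long Serpina3m-201 transcript a weak region (chr12:104378200-104378998) had every aged sample above every young one, 7.64, 7.06, 6.30 and 6.75 against 3.89, 4.46 and 5.75 CPM (adjusted p = 0.132).

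Serpina6 and Serpina10 have little repeated sequence, with 0% to 9.23% of 50-base stretches found elsewhere. None of their 9 regions was called, which is near the shares over all regions (2.44% more and 3.3% less accessible). The Serpina6 promoter (chr12:103655246-103660724) had 103, 113 and 96.0 CPM in young and 139.6, 149, 162 and 111 CPM in aged liver, with 3 of 4 aged samples above the young range and replicate 4 within it. Its log2 fold change of 0.43 ± 0.13 did not pass the threshold (edgeR adjusted p = 0.0681), and it was past it with DESeq2 (0.0257), with offsets on GC content (0.0175), without aged replicate 4 (0.0173) and with aged replicates 1 and 4 or 2 and 4 summed (0.0411 and 0.0372). In the other direction, it was 0.31 with total counts (adjusted p = 0.149), 0.36 without aged replicate 3 (0.183) and 0.085 with offsets fitted on mean abundance (0.814). The Serpina10 promoter (chr12:103629321-103632128) had 50.4, 50.1 and 65.1 CPM in young and 68.3, 62.0, 72.1 and 64.5 CPM in aged samples, in which young replicate 3 overlapped the aged range (0.28 ± 0.12, adjusted p = 0.170). Without that sample it was 0.42 (adjusted p = 0.0498), and over all alternatives it ran from 0.027 to 0.42. A region upstream of Serpina10 (chr12:103635500-103636196) had every aged sample above every young one, 22.8, 20.2, 16.6 and 22.8 against 14.3, 15.9 and 15.9 CPM, without passing the test (0.43 ± 0.16, adjusted p = 0.111). The gene end went the other way, with 27.6, 25.9 and 47.0 CPM in young and 30.2, 16.7, 15.4 and 29.8 CPM in aged liver (-0.48 ± 0.25, adjusted p = 0.254).

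The ratio of gene-end to promoter signal within a sample does not depend on scaling between samples. For Serpina1a it was 0.403, 0.332 and 0.421 in the young samples and 0.261, 0.187, 0.217 and 0.210 in the aged samples, lower in each aged sample than in any young one. The same order held for Serpina1b (mean 0.771 ± 0.239 in young and 0.397 ± 0.0569 in aged; SD, n = 3 and 4), Serpina1d (0.215 ± 0.0318 and 0.136 ± 0.0223) and Serpina10 (0.595 ± 0.111 and 0.347 ± 0.124). For Serpina1c, Serpina1e, Serpina3k and Serpina3n the ages overlapped. Over the 1356 genes of the series with both regions, the ratio was lower in every aged sample for 24.9% and higher for 4.5%, so ratios that separate the ages in this direction are common and 4 of 8 genes is a description only. Serpina3k had ratios of 0.552, 1.19 and 1.80 in young and 3.40, 1.22, 2.51 and 3.27 in aged samples, and young replicate 1 was the sample in which its gene end held fewer counts than its promoter.

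Levels of different genes were compared as CPM per kb of region. In young liver the Serpina1b promoter was highest at 29.0 ± 5.27 CPM per kb (SD, n = 3), followed by Serpina1e at 23.3 ± 3.84 and Serpina1a at 21.4 ± 1.32. Then came Serpina1c (21.0 ± 1.03), Serpina10 (19.7 ± 3.05), Serpina1d (19.5 ± 1.03), Serpina3k (19.2 ± 3.71), Serpina6 (18.9 ± 1.54), Serpina3m (17.0 ± 3.30) and Serpina3n (16.9 ± 4.52). Each neighbouring pair in this order had ranges of mean ± SD that overlapped. The genes were measured in the same 3 samples, and differences between neighbours within a sample were not tested. In aged liver Serpina1b (35.8 ± 1.64) was still first, Serpina3k (34.9 ± 7.47) followed within the spread, and Serpina1e (14.3 ± 8.40) was last. Narrow regions hold little of the lower flanks of a peak, so these values depend on the width called as well as on the gene. Fragments that fit several copies were filtered out, so the levels may also depend on how much of a promoter is repeated. The share of 50-base stretches found elsewhere was 34.1% to 50.9% at the alpha-1-antitrypsin promoters and 0% at those of Serpina6 and Serpina10. Its effect on the order was not tested.

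The spread between samples of one age was wide at several Serpina gene ends. The SD of log2 CPM within ages was among the highest 5% of regions of like strength (the same decile of mean signal) in 12 of the 45 Serpina regions, or 26.7%, and in 5 of the 8 gene ends, or 62.5%. Over the series the share was 5.01% of all regions and 10.9% of gene ends outside promoters. Without the Serpina1c gene end, which overlaps another gene's promoter, it was 4 of 7 Serpina gene ends. The Serpina3n gene end had the highest SD at 1.28 log2 units, the highest of all regions of its decile, followed by the Serpina1e gene end at 1.06, the Serpina3k gene end at 1.05 and the region downstream of Serpina3m at 1.03. Among the aged samples, replicate 2 was the lowest and replicate 3 the next lowest at each of these places. Aged replicate 1 was the highest at the Serpina3k and Serpina1e gene ends, and aged replicate 4 at the Serpina3n gene end and downstream of Serpina3m. Their position beside the young samples differed: aged replicate 3 was below the young range at the Serpina1e and Serpina3n gene ends and above it at the Serpina3k gene end. At the 10 promoters the SD ran from 0.115 at Serpina1a to 0.746 at Serpina1e, with a median of 0.188. It was above the median of its decile in 8 of the 10 and among the highest 5% in 2 (Serpina1e and Serpina3n), against 3.30% of all promoter regions.

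**Figure D4:**
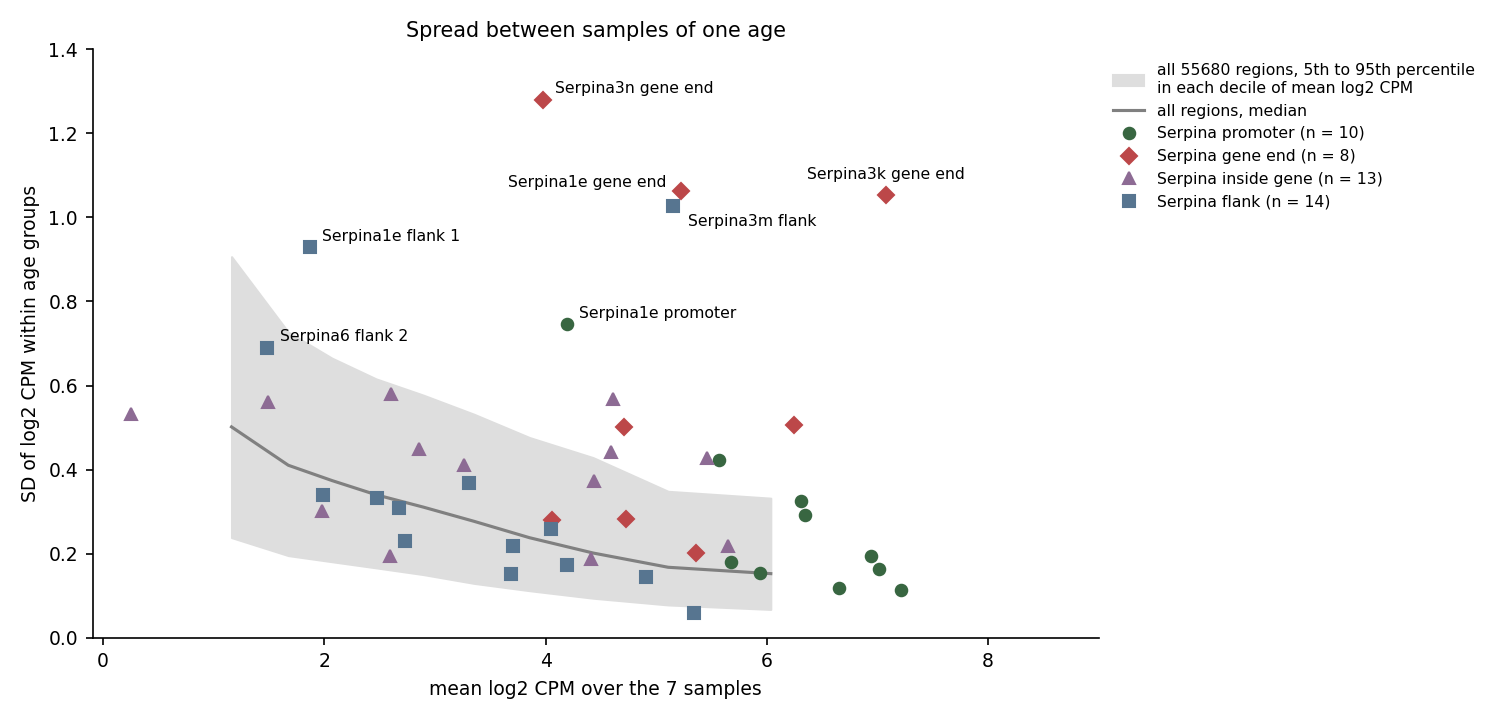
SD of log2 CPM within age groups against mean log2 CPM over the 7 samples for the 45 Serpina regions, marked by position in the gene, with the 5th to 95th percentile of all 55680 regions in each decile in grey. The gene ends of Serpina3n (1.28), Serpina1e (1.06) and Serpina3k (1.05) lie far above the grey band, and the promoter of Serpina1e lies at 0.746.

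**Figure D5:**
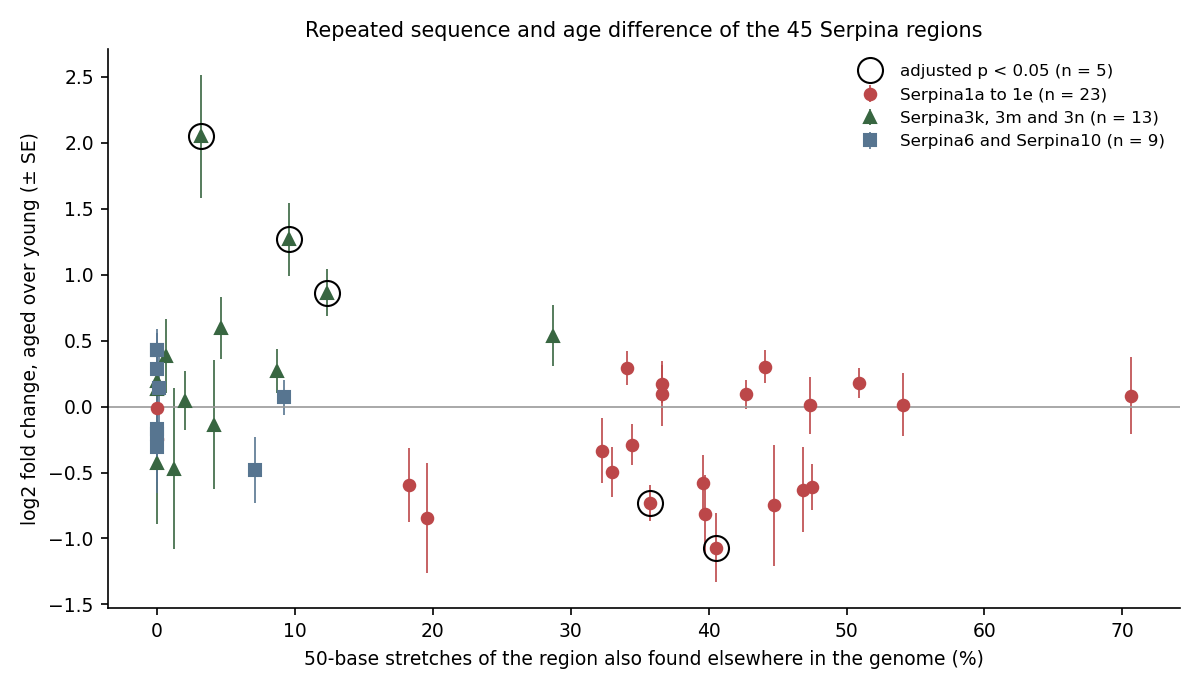
Log2 fold change (aged over young, bars ± SE) against the percentage of 50-base stretches of a region that occur elsewhere in the genome, for the 45 Serpina regions by gene group, with called regions circled. The 3 gains at Serpina3k lie at 3.20% to 12.3% and the 2 losses at 35.8% and 40.5%.

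Repeated sequence was unevenly shared among the members. At the alpha-1-antitrypsin genes 21 of 23 regions had 18.3% to 70.6% of their 50-base stretches elsewhere, while the 3 called regions of Serpina3k had 12.3% (promoter), 9.60% (exon 2) and 3.20% (gene end). Of the 23 alpha-1-antitrypsin regions 9 had log2 fold changes above 0, with a median of -0.29, and of the 13 Serpina3 regions 10 did, with a median of 0.27.

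Other genes give the setting. The 15 other Serpina genes listed for the cluster had 23 regions at 11 of them, of which 2 were called more accessible and 0 less accessible, beside 2.44% and 3.3% of all regions. Both lay in Serpina12, which encodes the adipokine vaspin: a region over an exon (chr12:104033379-104036426, log2 fold change 0.43 ± 0.12, edgeR adjusted p = 0.0480) and an intronic one (chr12:104040980-104043146, 0.57 ± 0.14, adjusted p = 0.0300). Of the promoters of 8 plasma serpins outside the cluster, 0 were called in either direction by edgeR, and at the shares of 4.48% and 2.06% over all promoters 0 of 8 is near the background. The largest difference among them was at Serpina7, the thyroxine-binding globulin gene (0.84 ± 0.27, adjusted p = 0.0814), followed by Agt, which encodes angiotensinogen (0.43 ± 0.13, adjusted p = 0.0636), and Serping1, which encodes the C1 inhibitor (0.36 ± 0.15, adjusted p = 0.147). In all 3 every aged sample was above every young one, as in 20.4% of all promoter regions.

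Among 13 genes for regulators of liver serpins, all with an accessible promoter, 2 were called more accessible and 0 less accessible, beside 4.48% and 2.06% of all promoter regions. Onecut1, which encodes the hepatocyte factor HNF6, had 113, 121 and 151 CPM in young and 297, 185, 249 and 213 CPM in aged samples (0.88 ± 0.16, edgeR adjusted p = 0.0120). Foxa2, a pioneer factor of liver chromatin, had 94.6, 102 and 87.0 and 150.4, 112, 140.1 and 128 CPM (0.49 ± 0.12, adjusted p = 0.0354). Of the hepatocyte markers, 1 of 8 was called more accessible, Apoa1, which encodes the main protein of high-density lipoprotein (0.53 ± 0.13, adjusted p = 0.0331).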

How the data were processed

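ATAC-seq of liver nuclei followed the Omni-ATAC protocol with paired-end sequencing, per the study's methods. The authors trimmed adapters with cutadapt 1.13, aligned to GRCm38 with Bowtie2 2.4.1 in local mode, kept proper pairs of mapping quality above 10 without PCR duplicates or mitochondrial DNA, and counted with featureCounts over MACS2 2.2.7 peaks found in at least 2 replicates outside blacklisted regions. They deposited raw counts for 55680 regions in 7 columns, which were assigned by the name in each sample's description.

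All regions were fitted with edgeR 4.0.16 in R 4.3.3 (TMM, quasi-likelihood test on age alone, Benjamini-Hochberg adjustment, threshold 0.05), a step tested on simulated data. The SE of a log2 fold change is its size divided by the square root of F, and log2 CPM used a prior count of 2. Promoters were TSS ± 200 bp of any GENCODE M21 transcript, the strongest region being taken where several overlapped, and gene ends are regions over an annotated transcript end outside the promoter of the same gene (over the series, outside all promoters). A motif search of the promoters is not reported here. Repeated 50-base stretches were counted over the chromosomes of GRCm38.p6, copies were found with minimap2 2.31 and short stretches were aligned with MAFFT 7.526. Alternatives used DESeq2 1.42.0, limma 3.58.1, loess offsets (span 0.3), filters, windows of 5 and 2 kb, and left-out or summed samples.

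The members and all gene lists were chosen with earlier results of these data known. Named were the promoters of the 10 genes, every called Serpina region and, of other lists, the genes called or up to 3 with the largest change; regions named for their spread, or because the ages did not overlap, were chosen after their values were seen.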

Additional observations from a re-analysis of the deposited data

Results flagged for a closer look

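Each of the 45 Serpina regions was examined for an aged sample whose log2 CPM lay far from the other 3, by the ratio of its gap to the range of the 4 samples, and 3 regions were picked out. Chance alone picks out about 1 in 20 groups, so 3 of 45 is close to the number that chance gives. At the Serpina3k promoter aged replicate 2 had 6.16 log2 CPM, and the other aged samples had 6.77 to 6.89. Downstream of Serpina3m aged replicate 4 had 6.44 log2 CPM against 4.56 to 4.78 in the others. At the Serpina3n promoter aged replicate 4 had 6.23 log2 CPM against 5.34 to 5.36. These last places lie next to each other and name the same sample, so they are not separate observations. No cause of these values was tested.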

How the results depend on the processing

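The edgeR fit with TMM factors called 3 Serpina regions more and 2 less accessible in aged liver. Offsets fitted on mean abundance left 0 and 1, offsets on GC content gave 5 and 2, and a threshold of 0.01 left 0 and 0. Without the regions that have a near-identical copy, 0 losses remained, since both lie in such regions. Leaving out 1 sample gave 0 to 4 gains and 0 to 5 losses: 0 and 0 without young replicate 1, 1 and 1 without young replicate 2, 0 and 1 without aged replicate 1 or aged replicate 3, and 4 and 5 without aged replicate 4. Since a pair of aged samples shares an animal, each of the 6 pairs was summed in turn: aged replicates 1 and 3 summed gave 0 gains and 1 loss, 2 and 3 summed gave 3 gains and 1 loss, and the other 4 pairs gave 3 or 4 gains and 2 or 3 losses. These held the same 3 gains and both losses as that fit, except that with 1 and 2 summed 1 of the 2 losses was another region. DESeq2, total counts, limma voom, both filters on low counts and narrower windows kept these counts within 1.5 times. The median over the Serpina regions ran from -0.10 to 0.13 over the alternatives.

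Promoter log2 fold changes that turned sign were those of Serpina1a with total counts (-0.026) and abundance offsets (-0.29), and with abundance offsets also those of Serpina1c (-0.054), Serpina1d (-0.15) and Serpina3m (-0.036). For Serpina1e a promoter of TSS ± 1000 bp takes another region, at 0.0095. For Serpina3n the value was -0.082 with total counts, -0.18 with abundance offsets, -0.064 with aged replicates 1 and 4 summed, -0.0020 with 2 and 4 summed, and -0.23 to 0.25 when 1 sample was left out. None of these passed the test.

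The replicate numbers of the labels were used as a block, with aged replicate 4 alone in its block. Samples with the same number did not deviate together (r = -0.12, 0.06 and 0.03 over all regions), beside -0.15 to 0.23 for samples with different numbers. These values show no pairing by number and cannot exclude one. The replicate block gave 4 gains and 7 losses, and -0.20 for the Serpina3n promoter, and with it the promoters of Serpina1e (-1.02, adjusted p = 0.0217) and Serpina6 (0.53, 0.0318) were past the threshold.

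Over the whole series TMM gave 1360 gains and 1838 losses, total counts 543 and 2931 with the median of all regions lower by 0.12 (log2), DESeq2 2760 and 1931, GC offsets 3494 and 2046, and abundance offsets 269 and 561. The cause of these shifts was not tested. Depth was low in 5 of the 45 regions, with under 10 counts in some sample.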
